A study of Caenorhabditis elegans with 60 samples.

Results

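A group of 71 genes, from which collagen genes were left out by symbol, had mRNA at a higher level in L4 animals of both csr-1a mutant strains than in wild-type L4 animals. They were chosen from 31106 annotated genes by their mRNA values. A gene was taken when its mean was at least 5 CPM (the gene's count scaled to 1000000 counts in the library) in csr-1a(cmp135) and in csr-1a(cmp143), and when both means were at least 5 times the wild-type mean after 0.1 CPM was added to each. Of 124 genes past these limits, 53 were left out. These were 39 whose symbol begins with one of 15 prefixes that cover collagens, vitellogenins, eggshell genes, maternal genes, histones and linc RNAs, and 23 on the X chromosome, with 9 left out on both grounds. Because the rule used the mutant-to-wild-type ratio, that ratio is a description of the 71 genes, and nothing is read from its test.

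The study asked what the longer isoform of the Argonaute protein CSR-1 does in Caenorhabditis elegans. The mRNA libraries came from poly(A) RNA of whole L4 animals grown at 20 °C and collected 48 h after hatching, with 3 libraries each of csr-1a(cmp135) (strain USC1065), csr-1a(cmp143) (strain USC1074) and the wild-type strain N2. Both alleles are CRISPR deletions in the part of the gene that is specific to csr-1a, and both were set against the same 3 wild-type libraries. The small RNA libraries came from immunoprecipitations (IPs) of tagged Argonautes and from the matching input lysates. Their animals were also grown at 20 °C, and those at L4 were labelled as collected at 48 h.

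At L4, the strain called CSR-1A (USC1110) carried a 2xHA tag on csr-1a and had 3 IP and 2 input libraries. The CSR-1B strain (USC1112) carried a 2xFLAG tag on csr-1 together with csr-1a(cmp135), so that the tag remains on the shorter isoform, and had 2 IP and 2 input libraries at L4 and 2 input libraries from adults collected at 68 h. The CSR-1A+B strain (USC1111) carried 2xFLAG on both isoforms with csr-1a intact, and had 2 IP and 2 input libraries at L4 and 2 adult input libraries. The WAGO-1 strain (USC988) carried GFP::3xFLAG::wago-1 and mut-16::mCherry and had 2 IP and 2 input libraries at L4. Wild-type animals, which carry no tag, went through the same procedure with anti-HA (3 IP and 2 input libraries used) and with anti-FLAG (3 IP and 3 input libraries). Inputs of 2 further L4 strains, with 3 libraries each, were read for heat shock genes. The strain called CSR-1A alg-3/4 carried 2xHA::csr-1a and mutations in the Argonaute genes alg-3 and alg-4. In CSR-1A[15xAG], arginines of the tagged CSR-1A were replaced by alanine. The study calls the mRNA replicates biological. For each IP it took a part of the cleared lysate as input and used the rest for the IP, so an IP and its input share a lysate. The sources used here do not say whether equal replicate numbers mark the same lysate, and the main tests of IP against input did not pair them. The p-values measure the spread between these libraries.

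CSR-1 is an Argonaute that carries small RNAs known as 22G-RNAs, which are antisense to mRNAs, and most germline-expressed genes are among its known targets. WAGO-1 carries 22G-RNAs of another set of genes, which it silences. Many of the genes described here belong to families with known work outside the germline. The abu, pqn and idpc families encode repetitive, disordered proteins, many of them made in the pharynx when its cuticle is formed. Genes of the hsp-16 and Hsp70 families encode chaperones that heat and protein damage induce, and cytochrome P450 enzymes and UDP-glucuronosyltransferases modify lipids and foreign compounds. In whole animals, fewer cells of a type and less RNA per cell cannot be told apart.

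Depth was similar across the mRNA libraries, at 16729691 to 21093818 counts. The small RNA libraries held 570862 to 10413430 counts, and the lowest total was that of CSR-1B IP replicate 1, so that members are read at far lower precision there. Whole-gene csr-1 mRNA was at 68.0, 53.8 and 61.4 CPM in csr-1a(cmp135) and 45.4, 56.2 and 44 CPM in csr-1a(cmp143), against 141, 131 and 135 CPM in wild-type. By the quasi-likelihood test of edgeR it was lower, with log2 differences of -1.03 (SE 0.12, adjusted p = 0.00013) and -1.34 (SE 0.12, adjusted p = 5.2e-05). The count covers both isoforms, so it does not by itself check the csr-1a labels.

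Genes that mark stage also differed between the mRNA groups, and their part in the levels of the 71 genes was not tested. Here and in the later gene lists, rose and fell mean called higher and lower by edgeR. Over all 14419 genes tested, 18.0% were called higher in csr-1a(cmp135) and 15.5% in csr-1a(cmp143), and the numbers called lower are given below. Of 6 vitellogenins, yolk genes switched on in the adult intestine, 5 rose in csr-1a(cmp135) and 6 in csr-1a(cmp143), with none lower. Of 31 molting and apical matrix genes, 24 fell and 5 rose in csr-1a(cmp135), and 22 fell and 5 rose in csr-1a(cmp143). Among 18 molting and developmental timing regulators, 13 fell in csr-1a(cmp135) and 11 in csr-1a(cmp143), and none rose. Of 36 oocyte, eggshell and maternal genes, 26 rose and 2 fell in csr-1a(cmp135), and 17 rose and 1 fell in csr-1a(cmp143). Of 81 sperm genes, 1 rose and 4 fell in csr-1a(cmp135), and 18 fell in csr-1a(cmp143). Markers of 6 other cell types were smaller in number, and their counts are given as a description. Among 11 intestinal markers 7 rose in csr-1a(cmp135) and 6 in csr-1a(cmp143), and among 8 epidermal markers 8 fell in csr-1a(cmp135) and 5 in csr-1a(cmp143). No body wall muscle marker passed the test in either allele, among 5. Among 6 neuronal markers 4 fell in csr-1a(cmp135) and 1 in csr-1a(cmp143). Of 7 gonadal sheath and spermatheca markers 2 rose and 2 fell in csr-1a(cmp135), and 1 rose and 1 fell in csr-1a(cmp143), while of 7 uterus and vulva markers 1 rose and 2 fell in csr-1a(cmp135) and 2 fell in csr-1a(cmp143).

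The 71 genes summed to 6833, 5852 and 6060 CPM in the 3 csr-1a(cmp135) libraries and to 5749, 5342 and 3157 CPM in the 3 csr-1a(cmp143) libraries, against 426, 563 and 706 CPM in wild-type. Every one of the 6 mutant libraries lay above every wild-type library, and csr-1a(cmp143) replicate 3 was the lowest of the mutants. The fold over wild-type had a median of 11.2 in csr-1a(cmp135), with a range of 5.37 to 81.9, and a median of 9.07 in csr-1a(cmp143), with a range of 5.07 to 51.4. In 30 of the 71 the fold reached 10 in both alleles, and in 27 the wild-type mean was under 1 CPM. All 71 had 6 mutant libraries above the 3 wild-type libraries, while 13.6% of the 10060 genes with a mean of 5 CPM in any group did. All 71 passed edgeR's test in both alleles, against 18.0% of 14419 genes tested called higher in csr-1a(cmp135) and 15.5% in csr-1a(cmp143), which restates the choice of the genes. In all, 2594 genes were higher and 2137 lower in csr-1a(cmp135), and 2239 higher and 1554 lower in csr-1a(cmp143), while scaling by library size alone gave 2019 higher and 3112 lower in csr-1a(cmp135) and 1710 higher and 2640 lower in csr-1a(cmp143). CPM is not scaled by gene length, so levels are not compared between genes.

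**Figure D1:**
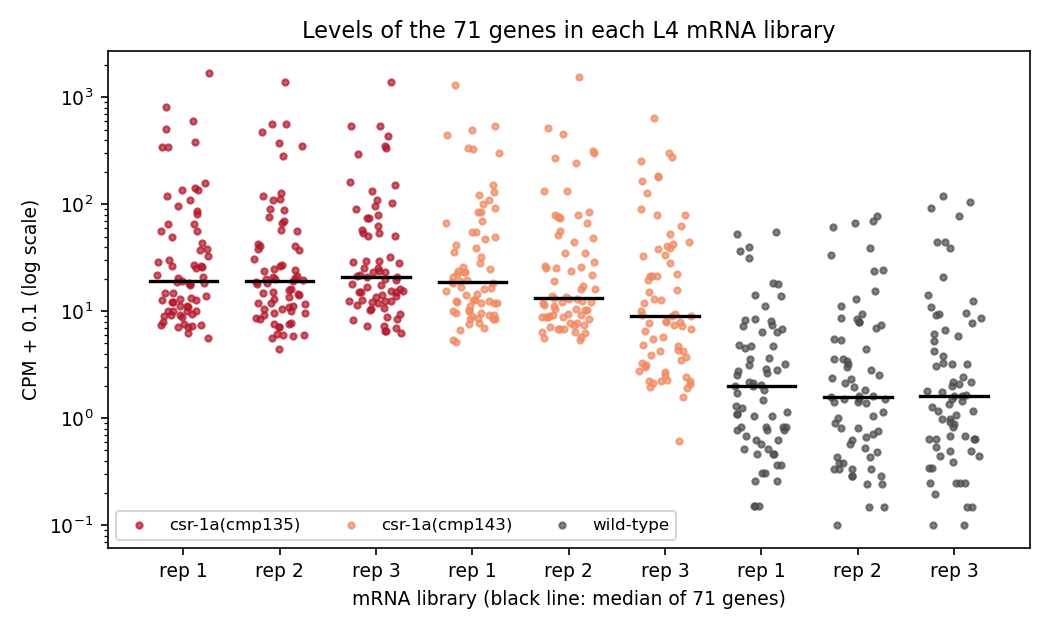
CPM of each of the 71 genes, with 0.1 CPM added and on a log axis, in each of the 9 mRNA libraries, with 1 point per gene and a black line at the median. The median level was 18.9 to 21.04 CPM in csr-1a(cmp135), 18.8 and 13.1 CPM in csr-1a(cmp143) replicates 1 and 2 and 8.88 CPM in csr-1a(cmp143) replicate 3, against 1.47 to 1.89 CPM in wild-type.

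The limits of the rule fell among genes of similar values. Just inside were C28H8.5, whose product has a ShKT domain, with folds of 5.73 in csr-1a(cmp135) and 5.07 in csr-1a(cmp143), and cest-1.1, a carboxylic ester hydrolase, with folds of 6.04 in csr-1a(cmp135) and 5.09 in csr-1a(cmp143). Just outside were clec-227, a C-type lectin gene, with folds of 5.62 in csr-1a(cmp135) and 4.98 in csr-1a(cmp143), and Y48G8AL.16 with folds of 5.26 in csr-1a(cmp135) and 4.95 in csr-1a(cmp143). By position, 27 of the 71 genes (38%) were on chromosome V, which held 20.5% of the 7804 genes that met the level and symbol parts of the rule, 16 were on II, 12 on IV, 9 on I and 7 on III. There were 16 members in 6 clusters with neighbours no more than 10000 bases apart. RefSeq gave a product for 69 of the 71, all protein coding, and no product name held the word collagen. The other 2, WBGene00022383 on chromosome I and WBGene00012273 on chromosome III, had no symbol, so the symbol part of the rule could not be applied to them.

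The repetitive and disordered proteins were the group with the highest median fold, at 28.9 in csr-1a(cmp135) and 19.7 in csr-1a(cmp143), over 13 genes. Their levels summed to 222, 269 and 370 CPM in csr-1a(cmp135) and to 273, 235 and 61.8 CPM in csr-1a(cmp143), against 21.5, 12.6 and 10.9 CPM in wild-type. csr-1a(cmp143) replicate 3 stood far below the other mutants in this group, yet above all 3 wild-type libraries. The group holds abu-1, abu-8, abu-11 and abu-14, named for their activation when the unfolded protein response is blocked, pqn-54, pqn-63, pqn-74 and C26F1.1, which are prion-like genes rich in glutamine and asparagine, and idpc-1, idpc-3, idpc-4, idpc-5 and idpc-6, named as intrinsically disordered proteins of class C.

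Within this group, abu-1 had 7.07, 8.46 and 12.7 CPM in csr-1a(cmp135) and 9.15, 7.73 and 0.507 CPM in csr-1a(cmp143), against 0.0526, 0.142 and 0.0487 CPM in wild-type, folds of 52.4 in csr-1a(cmp135) and 32.5 in csr-1a(cmp143). Of its exonic 50-base words, 82.4% also occur at another place in the genome, and pqn-2 and abu-5 are among the genes that hold copies. Its reads thus cannot be assigned to it with confidence, and its level is uncertain. abu-11 had 12.8, 17.8 and 25.2 CPM in csr-1a(cmp135) and 19.1, 12.8 and 2.13 CPM in csr-1a(cmp143), against 0.683, 0.237 and 0.146 CPM in wild-type. In both genes the lowest mutant library was csr-1a(cmp143) replicate 3, and it still lay above wild-type. abu-14 had 28.6, 41 and 57.8 CPM in csr-1a(cmp135) and 42, 34.9 and 7.91 CPM in csr-1a(cmp143), against 4.73, 1.42 and 1.56 CPM in wild-type. abu-8, with 37.6% of its 50-base words found elsewhere, had folds of 28.9 in csr-1a(cmp135) and 18.8 in csr-1a(cmp143).

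In the pqn genes csr-1a(cmp143) replicate 3 was again the lowest mutant library. pqn-74, whose product has chitin-binding domains, had 25.3, 37.2 and 62.3 CPM in csr-1a(cmp135) and 36.1, 26.5 and 5.68 CPM in csr-1a(cmp143), against 2.05, 0.616 and 0.292 CPM in wild-type. pqn-54 had folds of 42.4 in csr-1a(cmp135) and 25 in csr-1a(cmp143) and pqn-63 folds of 28.4 in csr-1a(cmp135) and 19.7 in csr-1a(cmp143). C26F1.1 showed a smaller ratio, with 65.9, 56.5 and 53.8 CPM in csr-1a(cmp135) and 54.7, 51.4 and 22.2 CPM in csr-1a(cmp143), against 7.36, 6.92 and 6.0 CPM in wild-type.

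A run of 5 members lies in one stretch of chromosome V, chrV:9616031-9629110 in WBcel235. In order they are pqn-63, idpc-6, idpc-5, idpc-4 and idpc-3, with idpc-7 and T06E4.7 among the other genes of the stretch. idpc-4 had 12.7, 15.0 and 21.2 CPM in csr-1a(cmp135) and 19.4, 12.2 and 3.20 CPM in csr-1a(cmp143), against 0.578, 0.190 and 0.146 CPM in wild-type, folds of 40.4 in csr-1a(cmp135) and 28.9 in csr-1a(cmp143). idpc-5 had 7.90, 8.29 and 16 CPM in csr-1a(cmp135) and 8.97, 9.13 and 2.03 CPM in csr-1a(cmp143), against 0.368, 0.332 and 0 CPM in wild-type. Both had every mutant library above every wild-type library. Of the 50-base words, 20.1% of those of idpc-5 and 18.2% of those of idpc-6 are found elsewhere. These genes hold copies of each other's words, so their separate values are less certain. The neighbour idpc-7, which the level limit left out, averaged 3.06 CPM in csr-1a(cmp135) and 1.52 CPM in csr-1a(cmp143), against 0.134 CPM in wild-type, while T06E4.7 was at or near 0 in every group. The 120 bases before the annotated start of idpc-4 (chrV:9625302-9625421, + strand) and idpc-5 (chrV:9622935-9623054, - strand) are shown because these neighbours are both members and point away from each other. They are read 5′ to 3′ toward each gene from the RefSeq genome of WBcel235, with TATAAA in capitals.
idpc-4: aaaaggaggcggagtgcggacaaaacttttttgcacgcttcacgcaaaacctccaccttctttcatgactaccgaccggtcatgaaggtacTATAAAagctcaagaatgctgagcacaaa
idpc-5: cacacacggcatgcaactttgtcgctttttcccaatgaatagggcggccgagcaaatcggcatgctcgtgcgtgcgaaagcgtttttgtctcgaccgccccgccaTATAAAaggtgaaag

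TATAAA, searched on both strands in the 250 bases before each annotated start, was present for 40 of the 71 genes (56.3%), against 34.9% of 19699 protein-coding genes. It was present for 6 of the 13 abu, pqn and idpc genes, 5 of the 5 heat shock genes, 8 of the 15 matrix and secreted protein genes, 9 of the 17 enzymes and transporters, 3 of the 5 T20D4.11-like and DUF19 genes and 9 of the 16 others. The windows of divergent neighbours can overlap, so that a site may count for both, as does the TATAAA of hsp-16.2 and hsp-16.41. A match is a description of the letters and not of a bound factor. The starts are those of the deposited counts. Start, end and strand were the same in another annotation of this genome build for 17 of the 71 members, against 52.65% of 30875 genes. Motif windows and shares thus depend on the annotation, and other starts were not tried.

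**Figure D2:**
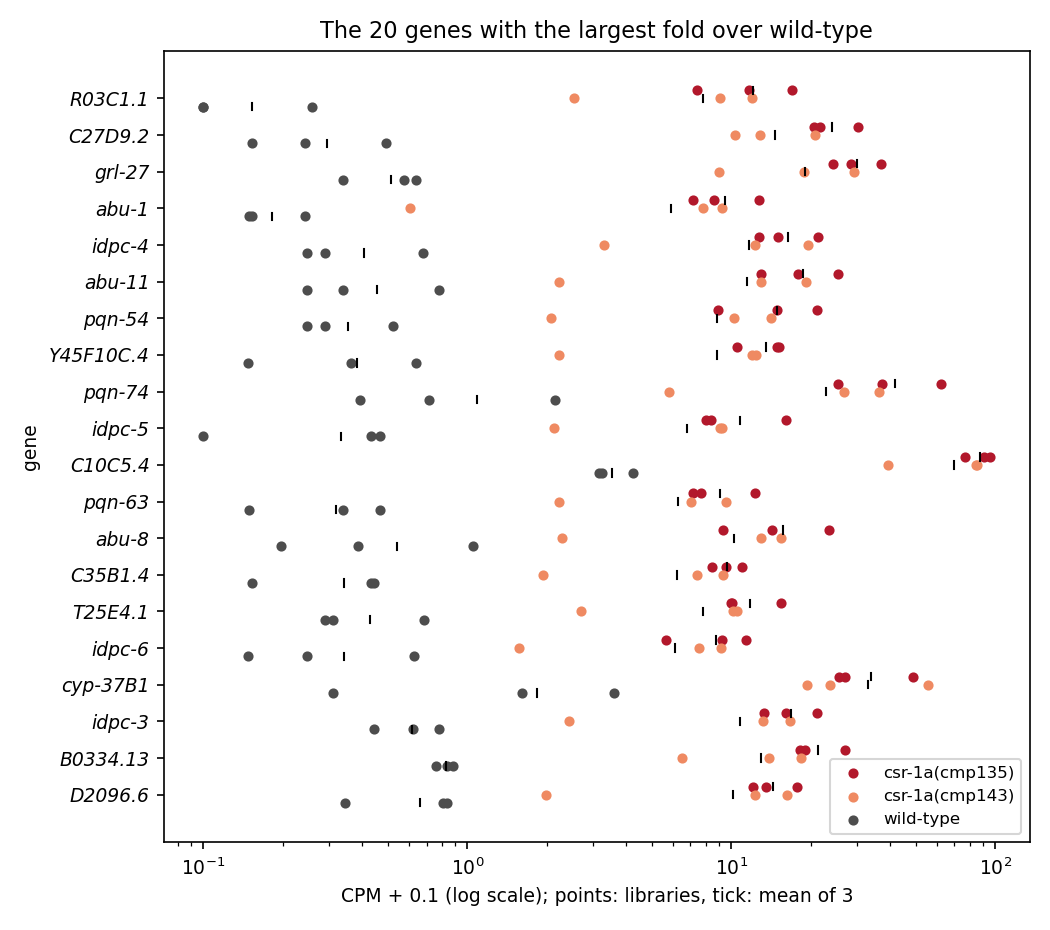
CPM in each of the 9 mRNA libraries, on a log10 axis with 0.1 CPM added, for the 20 genes with the largest fold by the smaller of both alleles, with a black tick at each group mean. All 6 mutant points lie above the 3 wild-type points in every gene, and csr-1a(cmp143) replicate 3 is often the lowest mutant point, as in abu-1 at 0.507 CPM.

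Counted over whole gene families, a choice made after their values were seen, the abu, pqn and idpc genes did not all move together. Of 77 such genes 60 could be tested, 12 of them members. In csr-1a(cmp135) 29 rose and 12 fell, and in csr-1a(cmp143) 27 rose and 2 fell. The 27 that rose in csr-1a(cmp143) also rose in csr-1a(cmp135), and the median log2 difference was 0.52 in csr-1a(cmp135) and 0.44 in csr-1a(cmp143), against -0.01 and -0.02 over all genes tested.

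The 5 heat shock genes formed a smaller group with another order of libraries. They summed to 108, 103 and 87.7 CPM in csr-1a(cmp135) and to 87.0, 40.6 and 107 CPM in csr-1a(cmp143), against 11.1, 8.87 and 11.6 CPM in wild-type. Here csr-1a(cmp143) replicate 2, not replicate 3, was the lowest mutant library. The median fold was 8.13 in csr-1a(cmp135) and 6.64 in csr-1a(cmp143).

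The small heat shock protein gene hsp-16.41 had 21.8, 20.8 and 15.1 CPM in csr-1a(cmp135) and 12.6, 6.33 and 15.8 CPM in csr-1a(cmp143), against 0.736, 0.474 and 0.877 CPM in wild-type, folds of 24.3 in csr-1a(cmp135) and 14.6 in csr-1a(cmp143). Its divergent neighbour hsp-16.2 had 20.2, 18.2 and 14.1 CPM in csr-1a(cmp135) and 12.5, 5.32 and 21.1 CPM in csr-1a(cmp143), against 2.1, 1.75 and 2.34 CPM in wild-type. The inducible Hsp70 gene hsp-70 had 20.9, 19.9 and 19.8 CPM in csr-1a(cmp135) and 22.2, 16.13 and 21.2 CPM in csr-1a(cmp143), against 3.57, 2.70 and 3.17 CPM in wild-type. In none of the 3 did a mutant library reach down to the wild-type range, and hsp-70 varied least among the mutants.

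F44E5.4 and F44E5.5 encode Hsp70 proteins and are near copies, with 98.0% of the 50-base words of F44E5.4 and 98.2% of those of F44E5.5 found elsewhere, so their separate values are uncertain. F44E5.4 had 26.7, 24.7 and 23.3 CPM in csr-1a(cmp135) and 23.3, 6.16 and 28.3 CPM in csr-1a(cmp143), against 2.79, 1.52 and 3.12 CPM in wild-type. F44E5.5 had 18.1, 19.5 and 15.5 CPM in csr-1a(cmp135) and 16.44, 6.66 and 21.2 CPM in csr-1a(cmp143), against 1.89, 2.42 and 2.1 CPM in wild-type. The pair showed the same low value in csr-1a(cmp143) replicate 2.

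Heat shock factor is known to bind repeated units of the letters NGAAN in alternating orientation, and the windows before these genes hold such repeats. The whole stretch of 206 bases between hsp-16.2 and hsp-16.41 (chrV:1804972-1805177, + strand) and the 150 bases before F44E5.4 (chrII:11759324-11759473, - strand) and F44E5.5 (chrII:11759490-11759639, + strand) are shown because every heat shock member holds the motif. They are from the RefSeq genome of WBcel235, 5′ to 3′, with TTCNNGAA in capitals. The last 2 windows have 107 of 150 bases the same and lie in one intergenic stretch of 316 bases.
hsp-16.2 to hsp-16.41: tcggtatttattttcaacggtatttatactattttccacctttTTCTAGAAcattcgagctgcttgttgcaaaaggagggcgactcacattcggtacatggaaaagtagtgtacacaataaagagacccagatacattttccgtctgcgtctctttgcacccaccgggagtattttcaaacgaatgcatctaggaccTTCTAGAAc
F44E5.4: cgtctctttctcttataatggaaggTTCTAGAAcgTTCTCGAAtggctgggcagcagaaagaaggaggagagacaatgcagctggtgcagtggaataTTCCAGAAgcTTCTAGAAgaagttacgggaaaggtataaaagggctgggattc
F44E5.5: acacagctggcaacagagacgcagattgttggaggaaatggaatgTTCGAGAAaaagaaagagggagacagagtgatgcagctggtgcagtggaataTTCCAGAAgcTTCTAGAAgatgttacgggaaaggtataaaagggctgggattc

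TTCNNGAA, which reads the same on both strands, was present in the 250 bases before 12 of the 71 genes (16.9%), against 15.3% of 19699 protein-coding genes. It was present before 5 of the 5 heat shock genes and before 0 of the 13 abu, pqn and idpc genes. The windows of hsp-16.2 and hsp-16.41 overlap, as do those of F44E5.4 and F44E5.5, so sites they share are counted for both genes of a pair. A longer form, TTCNNGAA followed at once by NNTTC and read on either strand, which contains the first motif, was present before 6 of the 71, against 1.6% of all. The 6 were the 5 heat shock genes and C35B1.4, which encodes an uncharacterized protein.

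Of the 14 genes listed for stress, 3 are members (hsp-16.2, hsp-16.41 and hsp-70). In the whole list 8 rose and 1 fell in csr-1a(cmp135), and 9 rose and 1 fell in csr-1a(cmp143). Both copies each of hsp-16.1 and hsp-16.48, further small heat shock genes, rose in both alleles without being members. The endoplasmic reticulum chaperone gene hsp-4 and the mitochondrial chaperone genes hsp-6 and hsp-60 did not pass the test in either allele. Over 22 genes with an hsp- symbol, chosen after their values were seen, 8 rose and 1 fell in csr-1a(cmp135), and 7 rose in csr-1a(cmp143).

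A group of 15 genes encoding matrix or secreted proteins had median folds of 17.8 in csr-1a(cmp135) and 13.1 in csr-1a(cmp143). It summed to 2384, 1950 and 2081 CPM in csr-1a(cmp135) and to 1914, 2114 and 889 CPM in csr-1a(cmp143), against 94.7, 110 and 171 CPM in wild-type. Again every mutant library was above wild-type, with csr-1a(cmp143) replicate 3 the lowest of the 6.

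The member with the fewest wild-type counts was R03C1.1, annotated as a cell wall-like protein, with 7.31, 11.6 and 16.9 CPM in csr-1a(cmp135) and 11.8, 8.96 and 2.44 CPM in csr-1a(cmp143), against 0.158, 0 and 0 CPM in wild-type. It had 642 counts in all in csr-1a(cmp135) and 406 in csr-1a(cmp143), against 3 in wild-type. The ratio of pooled rates was 237 for csr-1a(cmp135), with a 95% exact interval of 80.6 to 1151, and 151 for csr-1a(cmp143), with an interval of 51.3 to 736, both covering counting error only. C27D9.2, of a transthyretin-related family, had 30.1, 20.4 and 21.6 CPM in csr-1a(cmp135) and 20.6, 10.2 and 12.8 CPM in csr-1a(cmp143), against 0.0526, 0.142 and 0.390 CPM in wild-type, folds of 81.9 in csr-1a(cmp135) and 49.6 in csr-1a(cmp143). The groups of both genes stood well apart.

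The 2 hedgehog-related members carry a ground-like domain. grl-27 had 36.9, 24.1 and 28.3 CPM in csr-1a(cmp135) and 18.8, 29 and 8.88 CPM in csr-1a(cmp143), against 0.473, 0.237 and 0.536 CPM in wild-type, folds of 58.0 in csr-1a(cmp135) and 36.8 in csr-1a(cmp143). Of its 50-base words 45.5% are found elsewhere, so its level is uncertain. grd-6 had 137, 113 and 151 CPM in csr-1a(cmp135) and 131, 132 and 44.7 CPM in csr-1a(cmp143), against 11.1, 7.77 and 8.63 CPM in wild-type. The other genes of the family did not share one direction, since of 36 tested 15 rose and 19 fell in csr-1a(cmp135), and 14 rose and 15 fell in csr-1a(cmp143).

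Among peptides, B0334.13, annotated as FMRF-like, had 26.9, 18.9 and 18.1 CPM in csr-1a(cmp135) and 18.3, 13.8 and 6.39 CPM in csr-1a(cmp143), against 0.736, 0.664 and 0.780 CPM in wild-type. The neuropeptide-like gene nlp-25 had folds of 17.8 in csr-1a(cmp135) and 13.1 in csr-1a(cmp143) and was the 1 member in a list of 173 tested genes of innate immunity and epidermal peptides, of which 57 rose and 20 fell in csr-1a(cmp135) and 56 rose and 17 fell in csr-1a(cmp143). Y47D7A.15, a glycine-rich secreted protein gene with 16% of its 50-base words found elsewhere, had 1677, 1382 and 1401 CPM in csr-1a(cmp135) and 1303, 1563 and 643 CPM in csr-1a(cmp143), against 52.6, 70.4 and 120 CPM in wild-type. The astacin metalloproteases nas-27 and nas-30 had folds of 8.0 and 6.83 in csr-1a(cmp135) and of 6.05 and 5.11 in csr-1a(cmp143), and ule-4, named for a uterine lumen product, had folds of 13.2 in csr-1a(cmp135) and 7.74 in csr-1a(cmp143). The others were cpg-22, C30H6.5, T12B5.14 and Y45F10C.4, the last with folds of 35.5 in csr-1a(cmp135) and 23.2 in csr-1a(cmp143).

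A further 28 cuticlin genes, which encode matrix proteins with a ZP domain, held no member; 5 rose and 11 fell in csr-1a(cmp135), and 5 rose and 11 fell in csr-1a(cmp143). Of 6 adult cuticle collagens, which the rule left out by symbol, 4 rose and 2 fell in each allele.

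The 17 enzymes and transporters had median folds of 8.39 in csr-1a(cmp135) and 6.87 in csr-1a(cmp143). They summed to 1108, 911 and 1053 CPM in csr-1a(cmp135) and to 1039, 853 and 744 CPM in csr-1a(cmp143), against 97.3, 130 and 121 CPM in wild-type. The mutant libraries lay closer together here than in the matrix group. C10C5.4, an amidohydrolase of N-acyl amino acids, had 95.7, 76.5 and 90.6 CPM in csr-1a(cmp135) and 85.1, 84.8 and 39 CPM in csr-1a(cmp143), against 3.05, 3.13 and 4.14 CPM in wild-type, folds of 24.8 in csr-1a(cmp135) and 19.7 in csr-1a(cmp143). Of its 50-base words 10.1% are found elsewhere. The cytochrome P450 gene cyp-37B1 had 48.9, 26.9 and 25.6 CPM in csr-1a(cmp135) and 55.4, 23.5 and 19.3 CPM in csr-1a(cmp143), against 0.210, 3.51 and 1.51 CPM in wild-type, so that its libraries spread widely within each group. Another P450 gene, cyp-13A5, had 109, 88.8 and 102 CPM in csr-1a(cmp135) and 110, 76.3 and 128 CPM in csr-1a(cmp143), against 6.78, 24 and 21 CPM in wild-type.

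The Y47H10A.5 gene, whose product is annotated as a decapping nuclease, had 55.6, 40.3 and 54.1 CPM in csr-1a(cmp135) and 47.3, 48.2 and 79.5 CPM in csr-1a(cmp143), against 4.63, 5.31 and 5.17 CPM in wild-type. It is one of 6 members whose highest value was in csr-1a(cmp143) replicate 3. gba-4, a putative glucosylceramidase, had 86.9, 70.3 and 79.8 CPM in csr-1a(cmp135) and 84.7, 79.2 and 79.2 CPM in csr-1a(cmp143), against 14, 15.3 and 14.2 CPM in wild-type. trx-3, a thioredoxin gene, had folds of 16.6 in csr-1a(cmp135) and 12.2 in csr-1a(cmp143), and ugt-43, a glucuronosyltransferase, folds of 8.05 in csr-1a(cmp135) and 7.08 in csr-1a(cmp143). The rest of the group were gcy-19, R10D12.1, R07E5.4, ltah-1.2, lips-17, Y37A1A.2, C17B7.10, C06E8.5, pho-9 and cest-1.1, with folds from 5.60 to 11.3 in csr-1a(cmp135) and from 5.09 to 8.90 in csr-1a(cmp143). TGATAA, the letters of a GATA factor site, was present on either strand in the 250 bases before 9 of the 17, while it was present for 17 of the 71 (23.9%) and for 26.6% of all protein-coding genes. It was present for 1 of the 13 abu, pqn and idpc genes, 0 of the 5 heat shock genes and 2 of the 15 matrix and secreted protein genes. Of the T20D4.11-like and DUF19 genes 0 of 5 held it, and of the others 5 of 16. GTAAACA, the letters of a forkhead factor site, was present for 6 of the 71 (8.45%) and for 4.25% of all.

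The 5 genes with a T20D4.11-like or DUF19 domain, of unknown function, had median folds of 7.12 in csr-1a(cmp135) and 6.98 in csr-1a(cmp143). F35F10.5 had 55.9, 38.1 and 50.2 CPM in csr-1a(cmp135) and 39.1, 44.6 and 52.2 CPM in csr-1a(cmp143), against 6.36, 9.34 and 9.26 CPM in wild-type. D1086.11 had 6.18, 5.92 and 8.27 CPM in csr-1a(cmp135) and 5.26, 8.74 and 2.69 CPM in csr-1a(cmp143), against 0.526, 0.284 and 0.244 CPM in wild-type. The other 3 were T28A11.19, F35F10.13 and C17B7.4, with folds from 6.12 to 10.0 over both alleles.

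The remaining 16 genes had other or unknown products, with median folds of 9.89 in csr-1a(cmp135) and 7.36 in csr-1a(cmp143). C35B1.4 had 10.8, 9.47 and 8.38 CPM in csr-1a(cmp135) and 9.21, 7.34 and 1.83 CPM in csr-1a(cmp143), against 0.0526, 0.332 and 0.341 CPM in wild-type. T25E4.1 had folds of 27.6 in csr-1a(cmp135) and 18.2 in csr-1a(cmp143) and D2096.6 folds of 21.8 in csr-1a(cmp135) and 15.3 in csr-1a(cmp143). R12E2.7, R12E2.14 and R12E2.15, neighbours on chromosome I with uncharacterized products, had 9.49, 10.3 and 7.27 as their folds in csr-1a(cmp135) and 7.13, 7.59 and 5.15 in csr-1a(cmp143). The others were Y48G8AL.12, with 41.3% of its 50-base words found elsewhere, W02B12.13, dct-5, K02E2.8, K10H10.4, C02E7.7, F47H4.2, fbxa-158 and the 2 genes without a symbol.

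**Figure D3:**
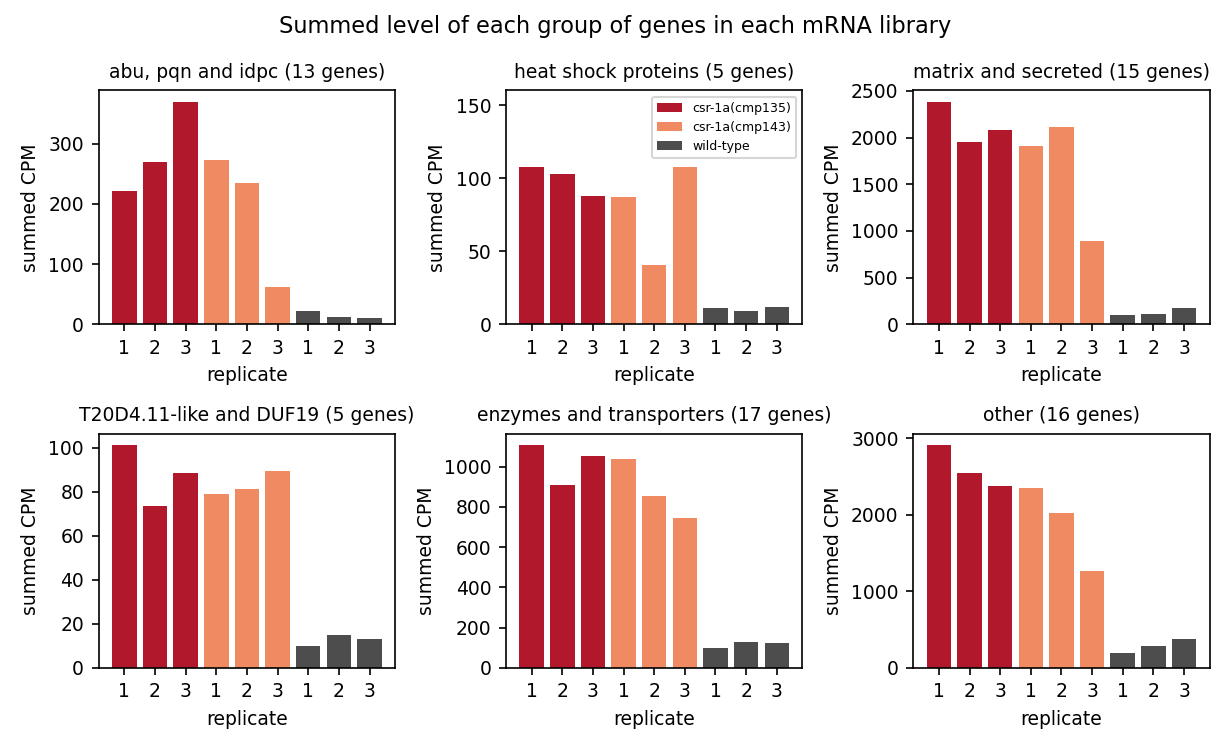
Summed CPM of the members of each of the 6 product groups in each mRNA library, with 3 bars each for csr-1a(cmp135), csr-1a(cmp143) and wild-type, and each panel with its own axis from 0. csr-1a(cmp143) replicate 3 is low among the mutants in the abu, pqn and idpc panel at 61.8 CPM, and is not low in the heat shock panel at 107 CPM.

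The alleles were also set against each other, in the fit of all 9 mRNA libraries. The levels of both alleles had a part in choosing the genes, so this contrast is given as a description too. No member of the 71, and none of 14419 genes (0.0%), was called different between the alleles by edgeR after Benjamini-Hochberg adjustment. At an unadjusted p of 0.05, 1188 genes and 4 members passed, namely hsp-16.41, trx-3, C27D9.2 and B0334.13, and DESeq2 called 5 genes higher and 7 lower, with 0 members among them. With the wild-type libraries left out of the fit, 0 genes were called and 844 genes passed at an unadjusted p of 0.05, 5 of them members. The mean was higher in csr-1a(cmp135) for 64 of the 71, and the members' median log2 difference was 0.42, against 0.00 over all genes. In 7 of the 71 members all 3 csr-1a(cmp135) libraries lay above all 3 csr-1a(cmp143) libraries, against 6.54% of 10060 genes. Without csr-1a(cmp143) replicate 3 the members' median log2 difference was 0.11.

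csr-1a(cmp143) replicate 3 was the lowest of the 6 mutant libraries in 52 of the 71 members. Its CPM, divided by the mean of csr-1a(cmp143) replicates 1 and 2, had a median of 0.489 over the 71 genes, with 37 under 0.5 and 12 at 1 or above, and a range of 0.0601 for abu-1 to 2.36 for hsp-16.2. Over the 9332 genes with a csr-1a(cmp143) mean of 5 CPM or more the median was 1.07. By group, the median ratio was 0.181 for abu, pqn and idpc genes, with 13 of 13 under 0.5, and 0.372 for matrix and secreted proteins, with 12 of 15 under 0.5. It was 1.83 for the heat shock genes, with 5 of 5 at 1 or above, 1.18 for the T20D4.11-like and DUF19 genes, 0.623 for enzymes and transporters and 0.529 for the others. Stage-related genes also set this library apart. Its molting and apical matrix genes summed to 3394 CPM, against 1601 to 2290 CPM in the other mutant libraries and 6278 to 8540 CPM in wild-type. Its vitellogenins summed to 1834 CPM, against 2931 to 4989 CPM in the other mutant libraries and 152 to 250 CPM in wild-type, and its sperm genes to 738 CPM, against 1310 to 1812 CPM in the other mutants and 1787 to 2004 CPM in wild-type. Its oocyte, eggshell and maternal genes summed to 474 CPM, against 667 to 1097 CPM in the other mutants and 465 to 515 CPM in wild-type. The molting, vitellogenin and oocyte sums of this library thus lay nearer to wild-type than those of the other mutants, and its sperm sum lay farther away. The part of these lists in the members' low values was not tested. Without this library the median fold in csr-1a(cmp143) was 9.52.

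The small RNA libraries, which the rule did not use, gave few reads for most of these genes. Counts were made without regard to strand, so antisense and sense reads cannot be told apart. In 17 input libraries, 32 of the 71 genes never reached 10 counts, 8 reached 10 counts in every one, and 34 could be tested in at least 1 comparison. The genes with enough reads are thus a selection, and counts below are of those tested. Where the libraries of a named gene are said to stand apart or not to overlap, this describes genes named after their calls. The share of all genes that do so was not counted, and with so few libraries it adds no support to a call. Y47H10A.5 held 84.9% to 91.1% of the member counts in each of these inputs, and less in the WAGO-1 IPs, at 27.9% and 30.9%. Its share was also lower in the CSR-1B IPs, at 80.4% and 82.2%, and in the IPs of untagged wild-type animals, at 68.3% to 83.3%. It was 92.6% to 95.1% in the CSR-1A IPs and 94.7% and 93.4% in the CSR-1A+B IPs. Levels are given as RPM, the gene's count scaled to 1000000 of the library's summed counts.

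In the CSR-1A IP, 3 of 25 members tested were higher and 6 lower than in input, against 20.8% and 13.7% of 13688 genes called higher and lower. Y47H10A.5 had 5620, 5606 and 4514 RPM in the IP, against 3626 and 2955 RPM in input, a log2 difference of 0.60 (SE 0.17, adjusted p = 0.0307 by edgeR). gba-4 had 11.3, 12.9 and 12.1 RPM in the IP, against 5.48 and 5.53 RPM in input (log2 difference 1.06, SE 0.25, edgeR adjusted p = 0.016). cyp-13A5 had 4.98, 9.29 and 7.10 RPM in the IP, against 3.02 and 2.96 RPM in input. In these 3 genes every IP library was above both inputs. R07E5.4, a lysosomal thiol reductase gene, had 6.31, 8.82 and 7.80 RPM in the IP, against 18.5 and 15.6 RPM in input (log2 difference -1.23, SE 0.24, edgeR adjusted p = 0.0088). The others that fell were C02E7.7, ule-4, nas-30, abu-8 and grl-27, by 0.93 to 2.16 on the log2 scale. These calls depended on single libraries, with 0 without input replicate 2, 0 without input replicate 3, 5 without IP replicate 1, 14 without IP replicate 2 and 1 without IP replicate 3. Fewer members were called with the replicate number as a block. DESeq2 called 0 members higher and 3 lower, and a single fit of all small RNA libraries 0 higher and 7 lower, so the 3 higher calls were all lost in both. With DESeq2's size factors within edgeR gba-4 alone stayed higher, and 2119 genes were higher and 2526 lower, against 2844 and 1872 with TMM, the default scaling of edgeR.

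In the CSR-1B IP, 0 of 17 members tested were higher and 17 lower than in input by edgeR, against 32.4% and 54.2% of 13287 genes called higher and lower. Y47H10A.5 had 727 and 520 RPM in the IP, against 3907 and 4028 RPM in input (log2 difference -3.78, SE 0.19, edgeR adjusted p = 6.7e-11). grl-27 had 10.5 and 13.4 RPM in the IP, against 66.8 and 74.5 RPM in input (log2 difference -3.53, SE 0.23, edgeR adjusted p = 1.1e-09). nas-30 had 0 and 2.63 RPM in the IP, against 17.4 and 17.6 RPM in input. In all 3 the IP and input libraries did not overlap. The members' median log2 difference was -3.30, against -1.25 over all genes tested, at an unadjusted p of 0.05 none was higher, and DESeq2 called 0 higher and 13 lower. On library size alone the medians were -2.23 over members and -0.17 over all genes, with 16 members lower and 5601 genes higher and 5686 lower, against 4305 and 7208. Without the shallow IP replicate 1 the medians were -2.33 and -0.51, with 19 members lower, and without input replicate 1 or IP replicate 2 the number lower was 11.

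In the CSR-1A+B IP, 0 of 18 members tested were higher and 14 lower than in input by edgeR, against 39.1% of 13094 genes called higher and 39.1% called lower. At an unadjusted p of 0.05 again none was higher, and DESeq2 called 0 higher and 10 lower. abu-11 had 3.29 and 2.28 RPM in the IP, against 14.9 and 16.7 RPM in input (log2 difference -2.83, SE 0.27, edgeR adjusted p = 6.1e-05). abu-8 had 5.11 and 3.53 RPM in the IP, against 19.2 and 18.0 RPM in input, and R07E5.4 had 2.19 and 1.66 RPM in the IP, against 9.03 and 7.30 RPM in input. The ranges of IP and input did not overlap in any of the 3. Y47H10A.5 fell by 0.45 on the log2 scale (SE 0.14, edgeR adjusted p = 0.0194), with 3329 and 2806 RPM in the IP, against 3145 and 3372 RPM in input, so that its RPM ranges overlapped.

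In the WAGO-1 IP, 10 of 18 members tested were higher and 6 lower than in input, against 42.1% and 44.1% of 13527 genes. W02B12.13, which encodes an uncharacterized protein, had 39.8 and 36.3 RPM in the IP, against 5.75 and 7.23 RPM in input (log2 difference 3.10, SE 0.16, edgeR adjusted p = 4.0e-10). The WAGO-1 input was low for W02B12.13. In the L4 inputs of the CSR-1A, CSR-1B, CSR-1A+B and wild-type animals it had 81.4 to 262 RPM, more than in the WAGO-1 IP. R07E5.4 had 48.2 and 50.0 RPM in the IP, against 15.6 and 10.8 RPM in input (log2 difference 2.47, SE 0.14, edgeR adjusted p = 9.2e-10). grl-27 had 94.9 and 101 RPM in the IP, against 27.6 and 27.3 RPM in input. Both IP libraries stood above both inputs in these genes, and abu-8, pqn-54, ule-4, nas-30, pho-9, Y37A1A.2 and F47H4.2 also rose, by 1.37 to 2.43 on the log2 scale. Y47H10A.5 had 226 and 254 RPM in the IP, against 2434 and 2537 RPM in input (log2 difference -2.80, SE 0.08, edgeR adjusted p = 3.7e-12). gba-4, Y47D7A.15, abu-14 and cpg-22 fell by 1.34 to 2.08, and cyp-13A5 fell with 0 and 0 RPM in the IP, against 3.34 and 2.11 RPM in input.

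**Figure D4:**
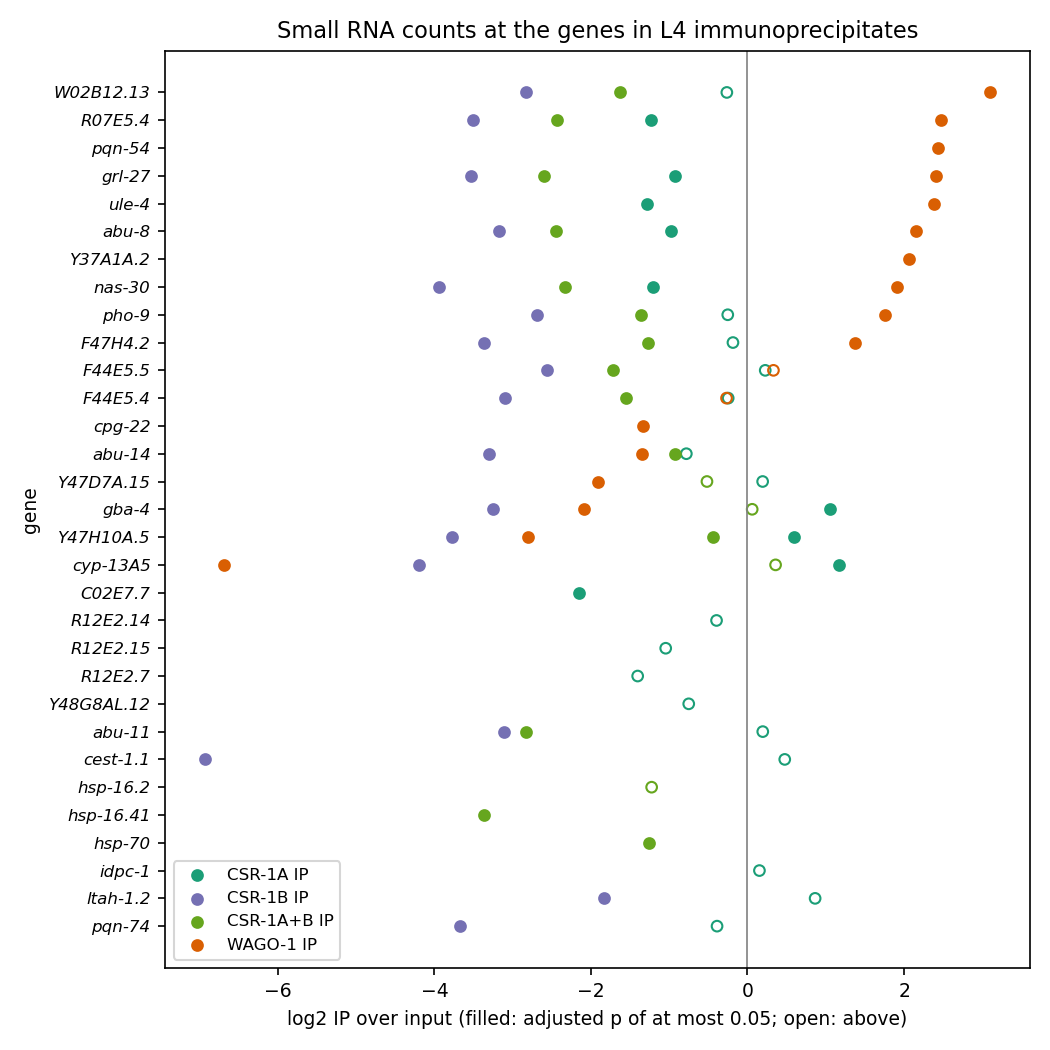
log2 difference of IP over input for each member tested in the CSR-1A, CSR-1B, CSR-1A+B and WAGO-1 IPs, with 1 colour per IP, filled circles for an adjusted p of at most 0.05 and open circles for a higher one. No filled circle of the CSR-1B or CSR-1A+B IP lies above 0, and 10 of the WAGO-1 IP do.

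The same procedure in animals without a tag gave a background. With anti-HA, 1 of 19 members tested, abu-11, was higher in the control IP than in its input by edgeR, against 1.53% of 12645 genes. With anti-FLAG, 3 of 24 were higher (Y47D7A.15, idpc-1 and pqn-74), against 8.14% of 12252 genes. Y47D7A.15 had 81.5, 152 and 137 RPM in the anti-FLAG control IP, against 15.1, 34 and 20.4 RPM in its input (log2 difference 2.37, SE 0.35, edgeR adjusted p = 0.00116). The anti-FLAG control IPs and inputs of the same number deviated together, and with the number as a block edgeR called 13 of 24 members higher and 1 lower, against 12.2% of genes called higher, with abu-14, abu-11, F44E5.4, grd-6, cpg-22 and Y48G8AL.12 among the 13. Of the 10 members called higher in the WAGO-1 IP, 7 were tested in the anti-FLAG control and none of these was called higher there with or without the block. Of the 3 called higher in the CSR-1A IP, Y47H10A.5 and gba-4 were tested in the anti-HA control, with log2 differences of 0.03 and -0.77 that did not pass the test. The single anti-HA call was lost without IP replicate 2, and the calls were 2 without IP replicate 1, 2 without IP replicate 3, 5 without input replicate 1 and 3 without input replicate 3. For anti-FLAG they were 9 without input replicate 2 and 7 without IP replicate 1.

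Input small RNA was also compared between the CSR-1B strain, which carries csr-1a(cmp135), and the CSR-1A+B strain at L4. There 1 of 22 members tested was higher and 4 lower, against 2.18% and 4.27% of 13549 genes. The 4 that fell are all heat shock genes. F44E5.5 had 12.7 and 10.5 RPM in the CSR-1B strain, against 32.1 and 31.6 RPM in the CSR-1A+B strain (log2 difference -1.46, SE 0.14, edgeR adjusted p = 0.000869). F44E5.4 had 15.7 and 14.1 RPM in the CSR-1B strain, against 31.8 and 26.8 RPM in the CSR-1A+B strain (log2 difference -0.998, SE 0.15, edgeR adjusted p = 0.00493). The ranges of both genes were apart, but their reads cannot be assigned to one copy with confidence. hsp-70 had 1.54 and 1.5 RPM in the CSR-1B strain, against 5.42 and 4.30 RPM in the CSR-1A+B strain, and hsp-16.41 had 0.960 and 1.16 RPM in the CSR-1B strain, against 3.06 and 3.56 RPM in the CSR-1A+B strain. The fifth heat shock gene, hsp-16.2, had 0.960 and 0.333 RPM in the CSR-1B strain, against 3.33 and 1.87 RPM in the CSR-1A+B strain, and did not pass the test (edgeR adjusted p = 0.0601).

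The values of other inputs stand beside this difference. In the L4 inputs of the CSR-1A, WAGO-1 and wild-type animals, F44E5.4 was at 2.04 to 5.32 RPM and F44E5.5 at 1.11 to 7.09 RPM, below both strains of the comparison. The inputs of 2 further L4 strains, looked at for these genes alone and after the other values were seen, lay on either side. In CSR-1A alg-3/4, with 2xHA::csr-1a and mutations in both of these Argonaute genes, F44E5.4 had 4.49, 5.21 and 3.36 RPM and F44E5.5 had 5.17, 6.05 and 3.76 RPM. In CSR-1A[15xAG], where arginines of the tagged CSR-1A are replaced by alanine, F44E5.4 had 58.1, 58.7 and 53.9 RPM and F44E5.5 had 60.4, 58.6 and 54.5 RPM. The CSR-1A[15xAG] inputs were thus above the CSR-1A+B inputs for both genes, and input levels varied widely between strains that keep csr-1a. Both strains of the comparison carry a 2xFLAG tag, which is also on the longer isoform where csr-1a is intact. Inputs of the remaining strains came from animals with another tag or none. Each genotype was read from a single strain, so that genotype and strain cannot be told apart here. Y47H10A.5 rose by a small amount, with 3907 and 4028 RPM in the CSR-1B strain, against 3145 and 3372 RPM in the CSR-1A+B strain (log2 difference 0.25, SE 0.05, edgeR adjusted p = 0.0174). Without CSR-1A+B input replicate 1 the number of calls was 2, and DESeq2 called 2.

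**Figure D5:**
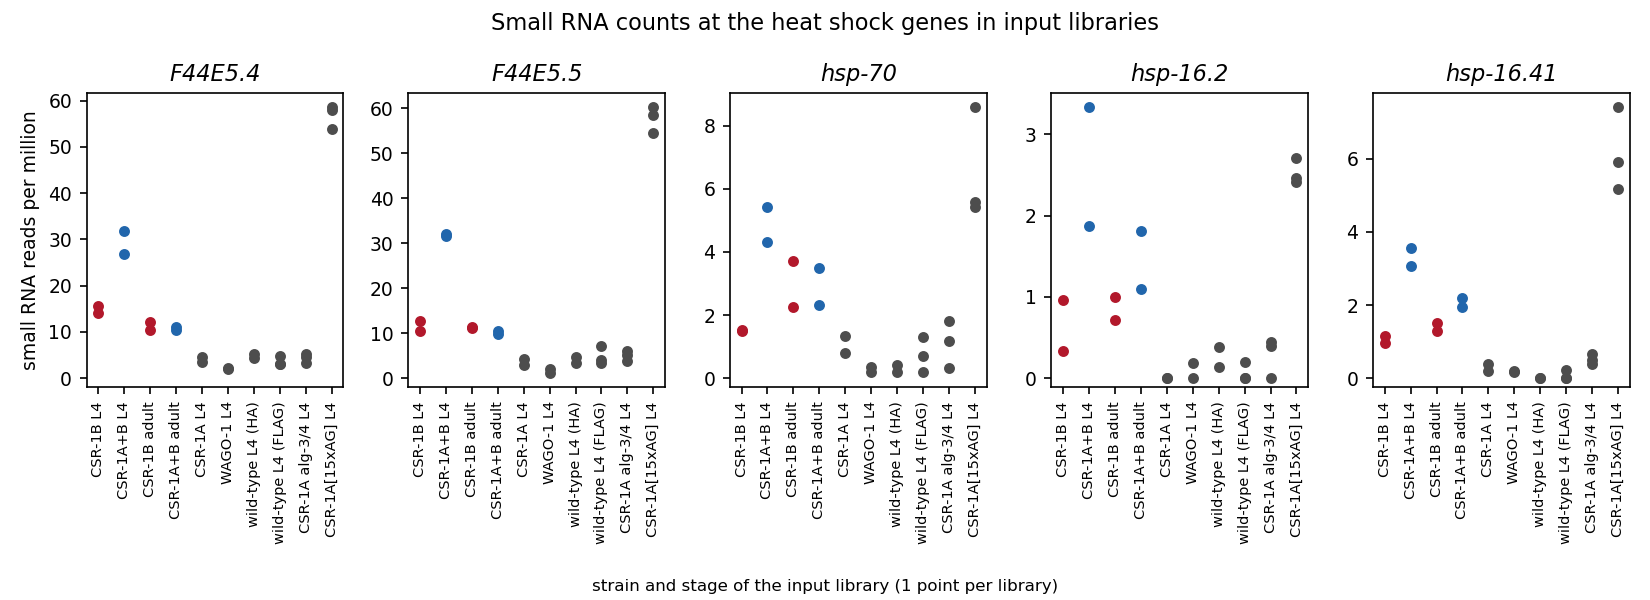
Input small RNA level in RPM of the 5 heat shock genes in the L4 and adult input libraries used here, by strain, with 1 point per library. Each panel has its own axis, and red marks CSR-1B, blue CSR-1A+B and grey the other strains. F44E5.5 lies at 12.7 and 10.5 RPM in CSR-1B L4 inputs and 32.1 and 31.6 RPM in CSR-1A+B L4 inputs, and highest in CSR-1A[15xAG], at 54.5 to 60.4 RPM.

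Adult inputs were compared with L4 inputs within each strain. In the CSR-1A+B strain 4 of 23 members tested were higher and 15 lower in adults, against 41.8% and 41.4% of 14565 genes. In the CSR-1B strain 4 of 21 were higher and 14 lower in adults, against 38.2% and 39.2% of 14573 genes. On library size alone 5 members were higher and 7 lower in the CSR-1B strain, with 7110 genes higher and 3654 lower, against 5572 and 5707, and the median over all genes was 0.51, against -0.05. In the CSR-1A+B strain 5 members were then higher and 11 lower, with a median of 0.28 over all genes, against -0.06. D1086.11 had 2.92 and 5.18 RPM in adults of the CSR-1A+B strain, against 0.278 and 0 RPM at L4, and 4.49 and 4.01 RPM in adults of the CSR-1B strain, against 0 and 0.166 RPM at L4. ule-4 rose by 1.80 in the CSR-1A+B strain and by 1.86 in the CSR-1B strain on the log2 scale, and R07E5.4 by 0.94 in the CSR-1A+B strain and by 1.01 in the CSR-1B strain. In the CSR-1A+B strain ltah-1.2, an aminopeptidase-like gene, also rose, and in the CSR-1B strain gcy-19, a guanylate cyclase gene, did.

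Among the members that fell, abu-14 had 0.486 and 0.389 RPM in adults of the CSR-1A+B strain, against 4.03 and 4.68 RPM at L4 (log2 difference -3.59, SE 0.40, edgeR adjusted p = 1.9e-06). In the CSR-1B strain abu-14 had 0.624 and 0.572 RPM in adults, against 3.46 and 2.49 RPM at L4 (log2 difference -2.88, SE 0.41, edgeR adjusted p = 2.7e-05). abu-8 fell by 1.86 in the CSR-1A+B strain and by 1.77 in the CSR-1B strain. Adult and L4 libraries did not overlap for either gene in either strain. grl-27 and nas-30 fell in both strains, by 1.23 and 1.03 in the CSR-1A+B strain and by 1.15 and 1.26 in the CSR-1B strain.

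F44E5.4 and F44E5.5 were followed further because their values at L4 differed between the strains. F44E5.5 had 10.6 and 9.72 RPM in adults of the CSR-1A+B strain, against 32.1 and 31.6 RPM at L4, and 11.2 and 11.4 RPM in adults of the CSR-1B strain, against 12.7 and 10.5 RPM at L4. F44E5.4 had 11.1 and 10.5 RPM in adults of the CSR-1A+B strain, against 31.8 and 26.8 RPM at L4, and 10.5 and 12.2 RPM in adults of the CSR-1B strain, against 15.7 and 14.1 RPM at L4. The adult-to-L4 log2 difference of F44E5.5 was -0.61 in the CSR-1B strain and -1.997 in the CSR-1A+B strain, and that of F44E5.4 was -0.97 in the CSR-1B strain and -1.80 in the CSR-1A+B strain. These follow the TMM scaling. On library size alone F44E5.5 was at -0.05 in the CSR-1B strain, with no call (edgeR adjusted p = 0.815), and at -1.65 in the CSR-1A+B strain, and F44E5.4 was at -0.41 in the CSR-1B strain and -1.45 in the CSR-1A+B strain. The strains overlapped or nearly met in adults and stood apart at L4. The difference between the strains in this change was tested in one edgeR model, and 2 of 27 members passed, F44E5.4 and F44E5.5, against 6.24% of 15230 genes, a share close to that of the members. It uses the same L4 libraries in which the strain difference was seen, so it restates that difference and adds no separate evidence.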

How the data were processed

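The mRNA values were whole-number counts per gene that the authors deposited after trimming with Trimmomatic 0.36, mapping with HISAT2 2.1.0 and counting with featureCounts (file headers 2.0.0). The small RNA values were expected counts that the authors deposited after mapping with Bowtie2 2.2.2 and counting with featureCounts (file headers 1.5.1 and 1.6.5), with fractions for reads assigned to several genes and no strand option, and they were rounded to whole numbers for tests. Annotation was WS258. Replicate 2 of the wild-type anti-HA L4 input was incomplete and was not used here, and total small RNA, adult IP, CSR-1A[15xAG] and alg-3/4 libraries entered only the alternative with all small RNA libraries in one fit, apart from L4 inputs of the last 2, read for heat shock genes.

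Counts were tested in R 4.3.3 with edgeR 4.0.16 (filterByExpr, TMM, glmQLFit and glmQLFTest), with Benjamini-Hochberg adjustment over all genes tested and a call at an adjusted p of 0.05. The 3 mRNA groups shared one fit, and each small RNA comparison had its own, the difference between strains a fit of 8 libraries. The procedure was tested on simulated data. Alternatives were DESeq2 1.42.0, other scalings, no filter, the replicate number as a block, other sets of samples, other limits of the rule and leaving out each library. Scaling mRNA by library size alone shifted the median over all genes to -0.13 in csr-1a(cmp135) and -0.16 in csr-1a(cmp143) on the log2 scale. Replicates of every pair differed by more than sampling noise. Same-numbered libraries were taken as paired for the anti-FLAG control alone, where the correlations of their deviations from the group means were 0.24, 0.323 and 0.137.

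Motifs were searched on both strands in the 250 bases before each annotated start, in the RefSeq genome of WBcel235. Copies were looked for as exact exonic 50-base words. A word was counted as found elsewhere when it occurred at another place in the genome, on either strand and also within the same gene. The genes named were the 20 with the largest fold, those nearest the limits of the rule, members of the gene lists, up to 3 of each symbol family with 3 or more members, up to 5 called in each direction of each other comparison, csr-1 and those whose sequence is shown. Others were named after their values were seen. The members and lists were chosen with earlier results of these data known.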

Additional observations from a re-analysis of the deposited data

Results flagged for a closer look

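The change in input small RNA between L4 and adults differed between the CSR-1B and CSR-1A+B strains for 2 of the 27 members tested, against 6.24% of all genes, so the count itself is near the share over all genes. The L4 libraries are those in which the strains were first seen to differ, and the values are no separate evidence of it. For F44E5.5 the adult-to-L4 log2 difference was higher in the CSR-1B strain than in the CSR-1A+B strain by 1.52 (SE 0.21, edgeR adjusted p = 0.00167), and it was positive in each of 8 fits that left out 1 of the 8 libraries, at 1.27 to 1.61, all of which passed the test. For F44E5.4 the difference was 0.96 (SE 0.22, edgeR adjusted p = 0.0233), with 0.69 to 1.10 when 1 library was left out. On library size alone, a scaling chosen after seeing the data, the values were 1.59 for F44E5.5 and 1.04 for F44E5.4. It did not pass the test without CSR-1B L4 input replicate 2 (adjusted p = 0.0789), CSR-1A+B L4 input replicate 1 (0.139), CSR-1B adult input replicate 2 (0.0727), CSR-1A+B adult input replicate 1 (0.0649) or CSR-1A+B adult input replicate 2 (0.0824). The genes are near copies of each other, so the 2 values do not stand for separate measurements.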

How the results depend on the processing

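The rule gave 71 genes, 38 with a fold of at least 8, 47 with a mean of at least 10 CPM and 60 to 90 when 1 mRNA library was left out. All 71 were called higher in both alleles in every mRNA alternative except that 70 could be tested, and were called, with csr-1a(cmp143) and wild-type fitted alone; leaving out 1 library gave 71 to 71 in each allele and 0 to 0 between alleles. The number of members with a higher mean in csr-1a(cmp135) was 59 to 68 when 1 mutant library was left out, a check chosen after seeing the data. For input of the CSR-1B strain over the CSR-1A+B strain, 5 calls became 2 with DESeq2, 1 with all small RNA libraries in one fit and 2 to 6 with 1 library left out. For the CSR-1A IP, 9 calls became 4 with the replicate block, 3 with DESeq2 and 0 to 14 with 1 library left out. Leaving out 1 library gave 11 to 19 calls for the CSR-1B IP (17 with all), 10 to 14 for the CSR-1A+B IP (14), 13 to 16 for the WAGO-1 IP (16), 16 to 20 for adults over L4 in the CSR-1A+B strain (19) and 15 to 20 in the CSR-1B strain (18). DESeq2 gave 12 and 10 calls in these strains. For the wild-type control IPs and the strain difference in stage, alternatives were chosen after seeing the data. The anti-HA control gave 1 call, 4 with the replicate block, 3 with DESeq2 and 0 to 5 with 1 library left out, the anti-FLAG control 3, then 14, 7 and 2 to 9 in the same order, and the strain difference 2 calls, 2 with the block, 2 with DESeq2's size factors within edgeR, 3 with library size alone and 1 to 3 with 1 library left out, 1 in the absence of CSR-1B L4 input replicate 2, CSR-1A+B L4 input replicate 1, CSR-1B adult input replicate 2 or either CSR-1A+B adult input. The cause of these shifts was not tested.

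Apart from the anti-FLAG control, replicates were taken to share only a number, although the study's protocol takes each IP and its input from one lysate. The main tests of IP against input thus left out that pairing. The anti-HA control, with correlations of 0.279 and 0.46, shared 2 numbers, fewer than the 3 pairs asked for. Pairing them gave the calls above and 71, 71 and 0 members in the mRNA comparisons, 7 for input of the CSR-1B over the CSR-1A+B strain, 16 for the CSR-1B IP, 14 for the CSR-1A+B IP, 15 for the WAGO-1 IP and 19 and 18 for adults over L4 in the CSR-1A+B and CSR-1B strains. In the last, with a correlation of -0.122, the crossed pairing also gave 18, chosen after seeing the data. No named member changed direction, and its call was kept in 186 and lost in 59 of the fits with 1 library left out, and kept in 290 and lost in 36 of the others. Members with few small RNA reads, 32 under 10 counts in every input, cannot show a difference at this depth, and fitted differences of genes with no IP counts, such as cyp-13A5, depend on the prior count and are no bound.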
